A study of Oryza sativa Japonica Group with 8 samples.

Results

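The genes described here encode potassium and sodium transporters, cation channels and anion channels of the rice leaf, followed through 3 days without water. A gene was taken when it is protein-coding and its deposited description names potassium, sodium, K+ or Na+, a chloride or anion channel, a cyclic nucleotide-gated channel or a cation/H+ exchanger, and not an oligopeptide or amino acid. Of 102 genes whose wording matched, 96 are in both deposited tables, and 77 of these averaged 1 FPKM or more in both. FPKM is the number of sequenced fragments scaled to transcript length and to library size. These 77 genes stand among 18113 genes that passed the same filter. The members nearest to the limit on the inside were Os01g0794650 and Os02g0518600, with 1.55 and 1.63 FPKM as the lower of their table means. Nearest on the outside were Os11g0148000 at 0.762 FPKM and Os01g0782800 at 0.644 FPKM.

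Plants of the japonica variety Ilmi were grown in soil in a greenhouse, and the leaves are labelled as 5 weeks old. The groups are well-watered control plants and plants under drought stress for 1, 2 or 3 days, where watering was stopped after the water content of the soil had been set near 75%. The labels name no mutation or transgene in any group. Each of the 4 treatments was sequenced once as a stranded total RNA library and once as a stranded mRNA library, so that 8 libraries hold 1 library per treatment and kind. The labels do not say how many plants a library holds, or whether both kinds came from the same RNA.

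Potassium is the main cation of plant cells, and its movement across membranes drives cell turgor and the opening and closing of stomata. Shaker-type channels let potassium pass along its electrochemical gradient, while KUP/HAK transporters can take it up against the gradient together with protons. HKT transporters carry sodium, and some carry potassium as well. Antiporters of the cation/proton kind move sodium or potassium into vacuoles or out of cells in exchange for protons, which the proton pumps of those membranes supply. Chloride channel (CLC) proteins and slow anion channels carry chloride, nitrate or malate, and anion loss through the latter is an early step of stomatal closure.

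The wording also takes in genes that are no channels of the plasma membrane. Among the 77 are 22 KUP/HAK-type potassium transporters, 11 cation/proton antiporters, 8 potassium channels, 8 chloride channels, 7 cyclic nucleotide-gated channels, 4 HKT-type or sodium transporters, 3 genes with a sodium/calcium exchanger domain and 2 genes likened to the Arabidopsis potassium channel AtKCO1. A further 6 are bile acid:sodium symporters, 2 are sodium/sulphate symporters, 2 are voltage-dependent anion channels (porins, known from the outer membrane of mitochondria) and 2 are proteins that associate with potassium channels or share a domain with them. No member is described as a slow anion channel. Names follow the descriptions, which rest on similarity, and 5 members are described with the name OsHAK1. In 26 members the gene overlaps another gene of the tables, and no source used here gives the strand setting of the counting, so reads of overlapping genes may not be told apart.

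There are no biological replicates, and no p-value is given. Each drought library was set against the watered one of its kind as the log2 ratio of FPKM + 1, here named the ratio, a scale that makes differences of low genes look smaller. Called genes are those whose ratio reached 1 (higher) or -1 (lower), a 2-fold difference, in both kinds. FPKM values are given in the order well-watered, day 1, day 2 and day 3. The summed FPKM of a library ranged from 678548 to 755487. Where the smallest step of the values is taken to be 1 fragment, which is an assumption, a member transcript of median length (2104 bases) at 1 FPKM rested on 34.3 fragments in the shallowest library, with 95% exact Poisson limits of 23.8 to 47.9 that cover counting error only. Across the libraries only 7.04% to 9.59% of low values lay at that step. Near a whole multiple of it lay 13.4% to 17.8%, so the fragment number is a rough estimate. The libraries carry leaf markers, since the 11 genes described as Rubisco small subunit or chlorophyll a/b-binding protein summed to 31160 FPKM in total RNA and 25238 FPKM in mRNA of watered leaves, the largest sums of the marker lists. This sum was 398 and 400.1 FPKM on day 3 and thus moved with the drought days on which the members differed, and its part in their values was not tested. In leaf samples of this kind, fewer cells of a type and less RNA per cell cannot be told apart.

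Ion transport genes were called higher more often than lower on each drought day. On day 1, 12 of 77 members (15.6%) were higher and 3 (3.90%) were lower, against 6.93% and 2.46% of all genes. On day 2, 24 (31.2%) were higher and 8 (10.4%) lower, against 14.5% and 11.1%. By day 3, 22 (28.6%) were higher and 16 (20.8%) lower, against 18.2% and 25.9%. The members thus held a larger share of higher genes than all genes on each of these days. Their shares of lower genes were near those of all genes on days 1 and 2. Across the days the median ratio of the members was 0.42, 0.54 and 0.48 by total RNA and 0.34, 0.42 and 0.25 by mRNA. The corresponding medians of all genes were 0.23, 0.11 and -0.24, then 0.17, 0.06 and -0.39.

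In all, 47 members were called on at least 1 day and 30 on none. The share of all genes called on at least 1 day was not computed, so these counts describe the members only. The split on day 3 depends on the scaling, since median-ratio scaling gave 30 higher and 13 lower members in place of 22 and 16. Over all genes the day 3 shares moved as well, to 24.3% higher and 19.3% lower in place of 18.2% and 25.9%. Median-ratio scaling shifted the all-gene median by 0.31 (total RNA) and 0.49 (mRNA) for day 3, and by -0.21 and -0.17 for day 1. The split on day 1 was 9 higher and 5 lower under the deposited quantile-normalized values, where 5.32% and 4.22% of all genes were called.

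**Figure D1:**
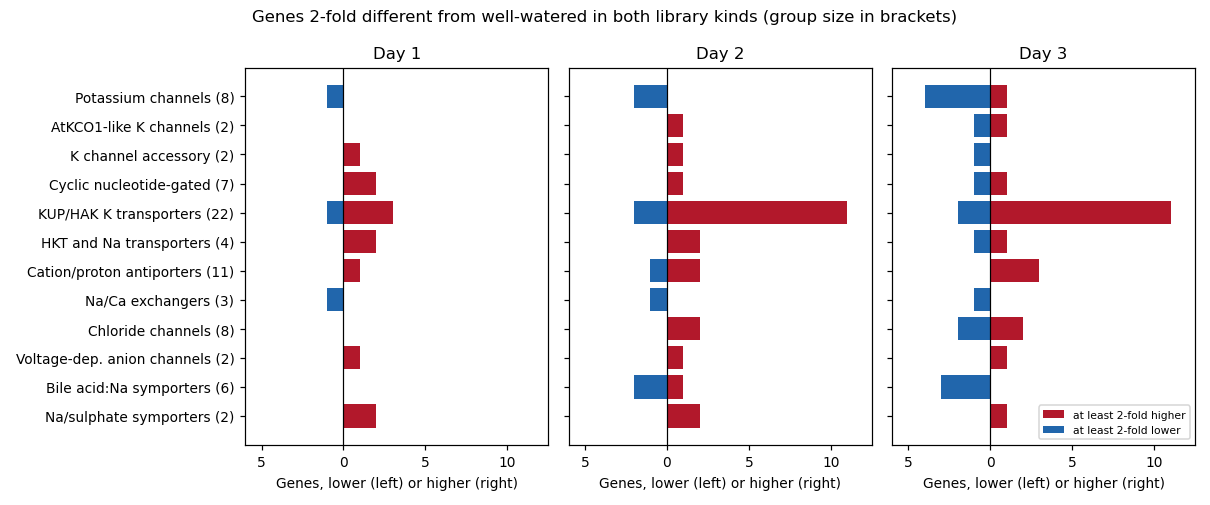
Number of genes that were at least 2-fold higher (red, to the right) or lower (blue, to the left) than in the well-watered library in both library kinds, by role and drought day, with the size of each group in brackets. The KUP/HAK group has 11 of 22 genes to the right on days 2 and 3, while the potassium channels have 4 of 8 to the left on day 3.

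The KUP/HAK transporters, which bring potassium into cells, made up the largest group and were called higher more often than lower. Among its 22 genes the first drought day had 3 higher and 1 lower, the second 11 and 2, and the third 11 and 2. Higher genes made up 13.6%, 50% and 50%, against 6.93%, 14.5% and 18.2% of all genes. Lower genes made up 4.55%, 9.09% and 9.09%, against 2.46%, 11.1% and 25.9%. By day 3 the group medians were 1.31 (total RNA) and 1.07 (mRNA). Median-ratio scaling gave 2, 10 and 13 higher genes along the days and the deposited quantile-normalized values gave 2, 8 and 13, with 1, 2 and 2 lower under either. Over all genes 4.92%, 13.8% and 24.3% were higher under the former and 5.32%, 13.1% and 19% under the latter. The lower shares over all genes were 3.74%, 11.6% and 19.3%, then 4.22%, 12.4% and 20.7%. A pseudocount of 5 gave 1, 6 and 10 higher and 0, 1 and 2 lower. Over all genes it gave 3.58%, 9.07% and 13.9% higher and 1.32%, 6.55% and 13.5% lower.

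Os09g0563200 (chromosome 9, 22367879 to 22373612), similar to potassium transporter 11, was the most abundant of the group in watered leaves. It showed 66.6, 108, 205 and 264 FPKM along the total RNA series and 72.96, 109, 195 and 279 FPKM along the mRNA series. Both kinds were lowest when watered and highest on day 3. Os03g0574900 (chromosome 3, 20978620 to 20985759), which carries an OsHAK1-like description, showed 41.1, 61.4, 75.5 and 266 FPKM along the total RNA series and 27.1, 35.05, 43.9 and 154 FPKM along the mRNA series. Its step from day 2 to day 3 was the larger part of the difference. Os03g0575200 lies 17037 bases away on the same chromosome with a like description, and it reached ratios of 2.34 and 2.21 on day 3 (total RNA, mRNA) after 1.87 and 1.82 on day 2.

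Os06g0270200 (chromosome 6, 9033633 to 9037674), similar to potassium transporter 24, had the highest day 3 ratios of the group. It showed 2.15, 2.08, 4.32 and 31.2 FPKM along the total RNA series and 2.45, 2.41, 4.52 and 38.02 FPKM along the mRNA series. The day 1 ratios were -0.03 and -0.02, and it was called on day 3 alone, at 3.35 and 3.499. Os02g0730300, similar to potassium transporter 25, was higher on days 2 and 3, at 2.42 and 2.34 on day 3. Os08g0206400, similar to potassium transporter 18, was also higher on both days, at 2.04 and 2.01 on day 3, although a pseudocount of 5 ended its day 2 call. The OsHAK1-described Os04g0401700 was called on day 3 at 1.64 and 1.45.

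Neighbouring gene models gave like values. Os06g0625900 and Os06g0626050 are both similar to potassium transporter 10 and lie 98 bases apart on chromosome 6. The former stood at 8.03, 28.4, 50.1 and 34.3 FPKM in total RNA and the latter at 2.497, 10.1, 19.6 and 10.3 FPKM. Both were called higher on all 3 days and were highest on day 2, although the calls of Os06g0626050 on days 1 and 3 were lost with a pseudocount of 5. Os07g0669650 and Os07g0669700, 38 bases apart on chromosome 7 and described as potassium transporters 7 and 4, had day 3 ratios of 1.59 and 1.72 for the former and 1.43 and 1.41 for the latter. The call of Os07g0669650 on day 1 was lost under both other scalings and with a pseudocount of 5, and the day 2 calls of both were lost under the deposited quantile-normalized values, that of Os07g0669700 also with a pseudocount of 5. Whether each such pair is 1 gene cannot be told from these tables, so the pairs may count 1 gene 2 times. All 3 higher calls of the group on day 1 fell on these pairs, in Os06g0625900, Os06g0626050 and Os07g0669650. Both genes of each pair were also among the 11 higher ones on days 2 and 3.

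The KUP/HAK genes called on day 2 and not on day 3 were Os01g0935500 (OsHAK7-like), Os07g0509200 (AtHAK7-like) and Os07g0679000 (AtKUP2-like). Their day 2 ratios in total RNA were 1.16, 1.02 and 1.38, and each call was lost with a pseudocount of 5, that of Os07g0509200 also under both other scalings and that of Os01g0935500 also with the most abundant transcript. Those called on no day were Os01g0930400 (potassium transporter 5), Os02g0518600 (OsHAK1-like), Os03g0337500, Os04g0610700 (AtKT5-like), Os04g0613900 (potassium transporter 18-like) and Os09g0376900 (AtKT5-like). Their day 3 ratios lay between -1.01 and 1.19.

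Both lower members of the group were below 1 FPKM in every day 3 library. Os09g0448200 (chromosome 9, 16754535 to 16759622), similar to a high-affinity potassium transporter, showed 19.1, 6.77, 2.96 and 0.604 FPKM along the total RNA series and 19.03, 7.98, 1.905 and 0.441 FPKM along the mRNA series. Each library was lower than the one of the day before, and its day 1 call was lost with a pseudocount of 5. Os07g0102100 (chromosome 7, 122255 to 127934), similar to potassium transporter 22 and also described with OsHAK1, showed 5.93, 4.28, 1.95 and 0.203 FPKM along the total RNA series and 22.5, 15.1, 5.58 and 0.241 FPKM along the mRNA series. Its watered level was several-fold higher in mRNA, and its day 3 ratios of -2.53 and -4.24 differed between the kinds by 1.72, more than those of any other member on that day. Its day 2 call was lost with a pseudocount of 5 and when only the most abundant transcript was counted. The tables were scaled separately by the authors, so levels set across them are a description.

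**Figure D2:**
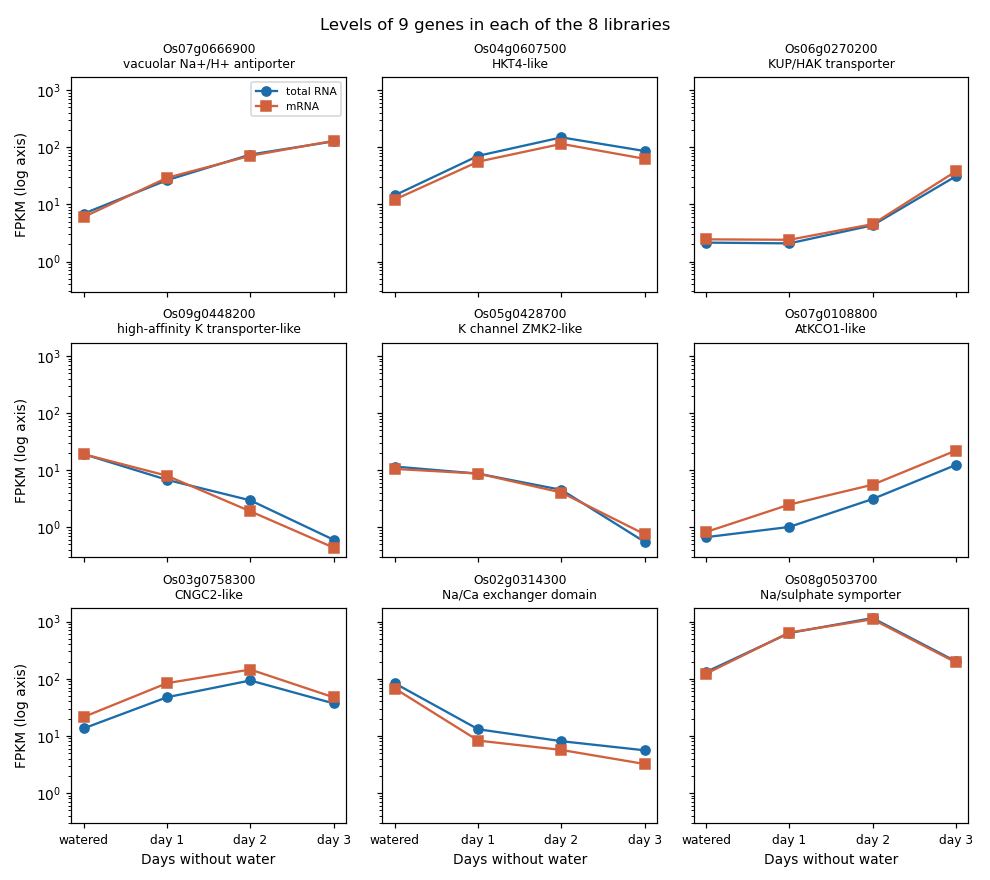
FPKM (log axis, shared by all panels) of 9 genes in the well-watered libraries and on days 1, 2 and 3 without water, with total RNA libraries as blue circles and mRNA libraries as orange squares, 1 library per point. Os07g0666900 climbs from 6.93 to 127 FPKM in total RNA, Os04g0607500, Os03g0758300 and Os08g0503700 are highest on day 2, and Os09g0448200, Os05g0428700 and Os02g0314300 are lower at each step.

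Among genes for sodium transporters of the HKT kind, 3 of 4 were highest on day 2. Of the 4, 2 were higher on days 1 and 2, and on day 3 there was 1 higher and 1 lower gene (2 and 1 under either other scaling). Over all genes 6.93%, 14.5% and 18.2% were higher along the days, and 25.9% were lower on day 3. On that day median-ratio scaling gave 24.3% higher and 19.3% lower over all genes, and the deposited quantile-normalized values 19% and 20.7%. Os04g0607500 (chromosome 4, 30724493 to 30727084), similar to cation transporter HKT4 and annotated with sodium transport, showed 14.5, 71.1, 149.6 and 86.3 FPKM along the total RNA series and 12.2, 56.2, 115 and 63.1 FPKM along the mRNA series. It was called higher on all 3 days, and day 2 exceeded both day 1 and day 3 in each kind. Os06g0701700, similar to HKT1 and annotated as a Na+/K+ symporter, showed 0.123, 2.67, 6.51 and 1.65 FPKM along the total RNA series and 0.115, 2.29, 5.86 and 0.991 FPKM along the mRNA series. Levels below 1 FPKM when watered make its ratios sensitive to the pseudocount, and its day 1 call was lost with one of 5. It missed the day 3 call in mRNA alone, at 1.24 and 0.84. Os01g0532600, another HKT1-like gene, was called on no day, with 3.16, 4.78, 6.18 and 2.72 FPKM in total RNA.

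Os02g0175000, described as an ion transporter for sodium, went the other way. It showed 13.7, 11.8, 10.6 and 2.13 FPKM along the total RNA series and 11.7, 9.32, 8.08 and 1.52 FPKM along the mRNA series. The difference lay in the day 3 libraries, whose ratios were -2.23 and -2.34. On the other days the ratios stayed between -0.49 and -0.20.

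Cation/proton antiporters held the gene with the highest mRNA ratio of all 77 members on day 3. The first drought day had 1 higher gene of 11, the second 2 higher and 1 lower, and the third 3 higher. Higher genes made up 9.09%, 18.2% and 27.3%, against 6.93%, 14.5% and 18.2% of all genes. Lower genes made up 9.09% on day 2, against 11.1%, and there were none on day 3, against 25.9%. Under median-ratio scaling the day 3 count of higher genes was 5, under the deposited quantile-normalized values 4, and with a pseudocount of 5 it was 2. In that order the higher shares over all genes were 24.3%, 19% and 13.9%. Os07g0666900 (chromosome 7, 28164424 to 28169307), described as a vacuolar Na+/H+ antiporter of salt tolerance, showed 6.93, 26.7, 74.8 and 127 FPKM along the total RNA series and 6.04, 29.3, 71.2 and 130.4 FPKM along the mRNA series. Its level was higher at each step in both kinds, and its ratios along days 1, 2 and 3 were 1.803, 3.26 and 4.02 by total RNA and 2.11, 3.36 and 4.22 by mRNA. Antiporters of this kind load sodium or potassium into the vacuole. Its second transcript, Os07t0666900-02, held 61.7% of the gene's FPKM in watered total RNA and 5.97% on day 3, and 25.01% and 3.67% in mRNA. The first transcript thus held most of the day 3 level in both kinds.

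Os11g0648000 (chromosome 11, 25768487 to 25772558), similar to a Na+/H+ antiporter, showed 22.9, 28.8, 38.4 and 124 FPKM along the total RNA series and 20.2, 34.5, 51.4 and 132 FPKM along the mRNA series. It was called on day 3, after ratios of 0.72 and 1.303 on day 2 of which only the mRNA one passed 1. Os01g0794650, similar to a sodium/hydrogen exchanger, showed 0, 0.502, 3.06 and 3.63 FPKM along the total RNA series and 0, 0.699, 4.49 and 1.01 FPKM along the mRNA series, being listed at 0 in both watered libraries. Both of its calls were lost with a pseudocount of 5. Os12g0617800, a cation/H+ exchanger gene and the most abundant antiporter of the total RNA libraries when watered, showed 58.9, 63.8, 90.9 and 123 FPKM along the total RNA series and 53.2, 58.3, 74.3 and 101 FPKM along the mRNA series. It was higher at each step, yet its day 3 ratios of 1.05 and 0.92 did not both reach 1.

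Other antiporters differed little or were lower. Os03g0127900, also a cation/H+ exchanger gene, showed 34.1, 22.01, 13.5 and 15.4 FPKM along the total RNA series and 38.1, 25.1, 16.8 and 19.5 FPKM along the mRNA series, and it was called lower on day 2, a call lost with a pseudocount of 5. The Na+/H+ antiporter-like genes Os05g0148600, Os12g0641100 and Os09g0109800 were called on no day, nor were the exchanger genes Os05g0113300 and Os09g0286400 or the potassium/proton antiporter-like Os06g0561200. Their day 3 ratios ran from -0.79 to 0.88 in total RNA and from -1.87 to 0.74 in mRNA. The lowest of these belonged to Os09g0109800, which has 4 transcripts and also a description as a divalent ion symporter.

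Of the 3 genes with a sodium/calcium exchanger domain, a domain of cation exchangers that move calcium, 1 was lower on all 3 days. That is 33.3% lower on each day, against 2.46%, 11.1% and 25.9% of all genes. Os02g0314300 (chromosome 2, 12432303 to 12448557) showed 82.96, 13.04, 8.06 and 5.58 FPKM along the total RNA series and 67.2, 8.26, 5.66 and 3.21 FPKM along the mRNA series. Most of the difference was present on day 1, with ratios of -2.58 and -2.88, the lowest of any member on that day, and it kept its calls under each alternative tried. Os03g0180000 and Os11g0660000 were called on no day, with day 3 ratios of 0.85 and 0.65 for the former and -0.98 and -1.15 for the latter.

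**Figure D3:**
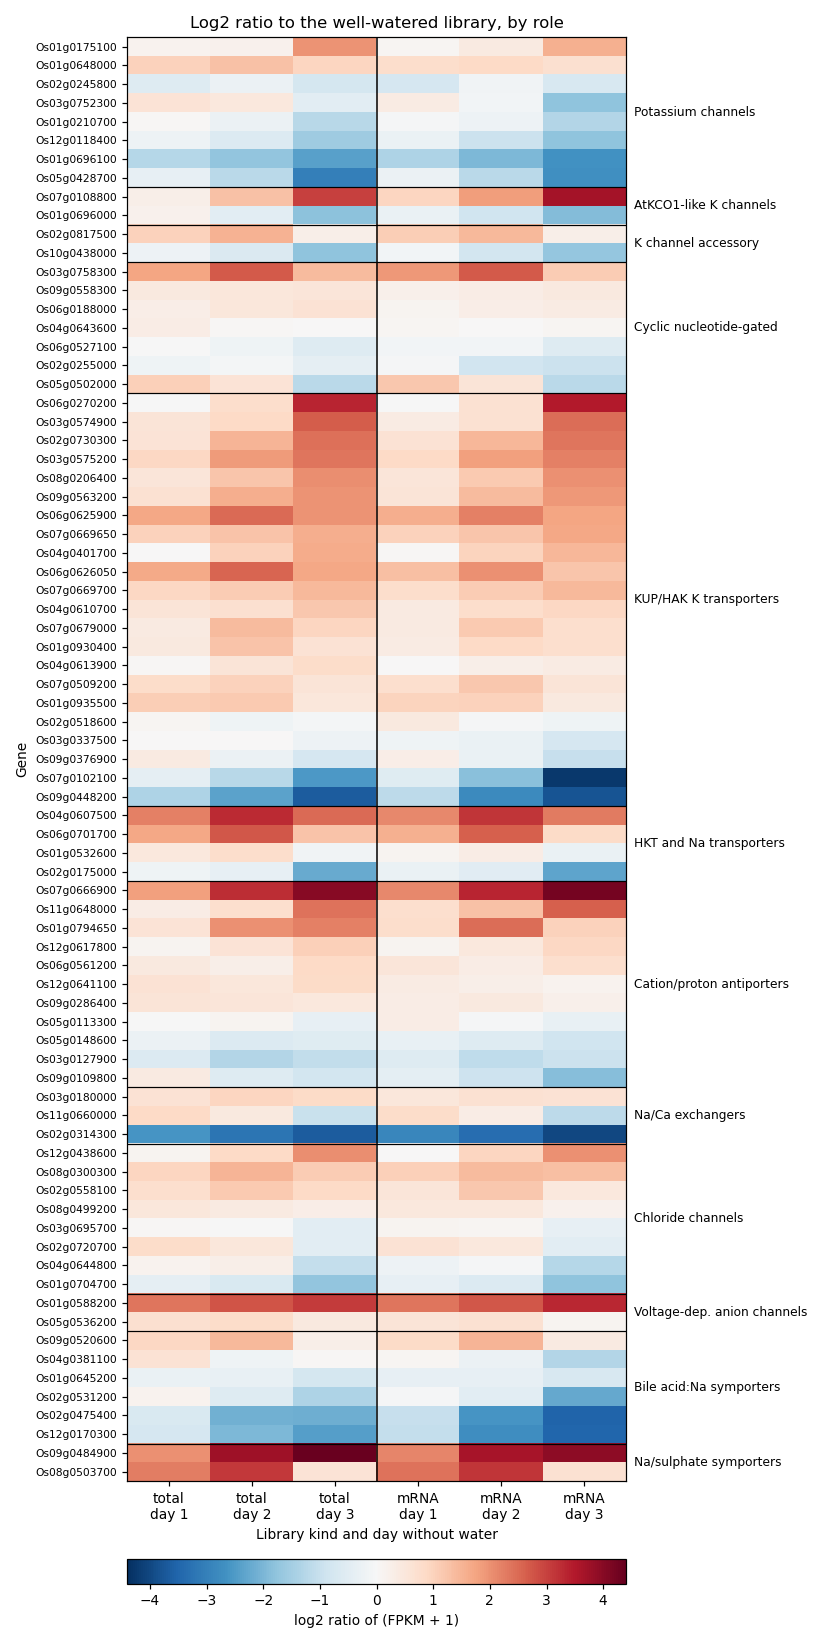
Ratio (log2 of FPKM + 1 over the well-watered library of the same kind) for all 77 genes in rows, grouped by role and sorted by their day 3 mean, with total RNA on the left and mRNA on the right for days 1, 2 and 3. Red is higher and blue lower than in watered leaves. The red block of KUP/HAK genes deepens towards day 3, where Os07g0666900 reaches 4.02 and 4.22.

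Among the 8 potassium channels the first drought day had 1 lower gene, the second 2, and the third 4 lower and 1 higher, where 2.46%, 11.1% and 25.9% of all genes were lower. A pseudocount of 5 left no call on days 1 and 2, and 2 lower and 1 higher on day 3. Median-ratio scaling and the deposited quantile-normalized values both gave 3 lower and 2 higher on day 3. For all genes on day 3, the pseudocount of 5 gave 13.5% lower and 13.9% higher. Median-ratio scaling gave 19.3% and 24.3%, and the deposited quantile-normalized values 20.7% and 19%. Group medians for day 3 were -0.996 (total RNA) and -1.52 (mRNA).

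Os05g0428700 (chromosome 5, 21039575 to 21042553), similar to the maize potassium channel ZMK2, showed 11.6, 8.69, 4.52 and 0.554 FPKM along the total RNA series and 10.5, 8.72, 4.05 and 0.755 FPKM along the mRNA series. Each day was lower than the one before it, and the day 3 ratios were -3.01 and -2.71. Its day 2 call was lost with a pseudocount of 5. Os01g0696100, similar to an outward rectifying potassium channel, showed 4.604, 1.34, 0.689 and 0.0613 FPKM along the total RNA series and 5.72, 1.598, 0.692 and 0.0472 FPKM along the mRNA series. It was called lower on all 3 days, and with a pseudocount of 5 it kept none of them. Os12g0118400 showed 20.3, 17.1, 13.1 and 6.23 FPKM along the total RNA series and 43.4, 35.1, 22.2 and 12.1 FPKM along the mRNA series, and was called lower on day 3. The transcript described as an inwardly rectifying channel subunit held 11.8% of its watered FPKM in total RNA and 8.49% in mRNA, the other transcript being described as a hydrolase, and the call was lost when the channel transcript alone was counted.

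Os01g0210700, similar to a potassium channel, was lower on day 3 at -1.21 and -1.28, a call lost under both other scalings and with a pseudocount of 5. The higher gene on day 3 was Os01g0175100, described as a Kv1.4 voltage-gated channel family protein, which showed 2.399, 2.83, 2.87 and 12.3 FPKM along the total RNA series and 3.73, 4.07, 5.15 and 13.1 FPKM along the mRNA series. Its levels differed little until day 2. Os01g0648000, similar to AKT1, an inward channel known for potassium uptake in Arabidopsis roots, showed 5.21, 11.7, 14.05 and 11.04 FPKM along the total RNA series and 4.05, 7.72, 8.27 and 7.29 FPKM along the mRNA series. It passed 1 in total RNA on days 1 and 2 and in mRNA on no day, so it was not called. Os02g0245800, similar to an inwardly rectifying channel, was called on no day, with ratios of -0.78 and -0.71 on day 3. Os03g0752300, similar to a K+ channel protein, had day 3 ratios of -0.47 and -1.76 that parted between the kinds.

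The 2 genes likened to AtKCO1, a channel of the vacuole membrane in Arabidopsis, went in opposite directions. Os07g0108800 (chromosome 7, 467286 to 468753) showed 0.6702, 1.01, 3.12 and 12.3 FPKM along the total RNA series and 0.826, 2.496, 5.56 and 22.1 FPKM along the mRNA series. It was higher on days 2 and 3, and its day 3 ratios of 2.997 and 3.66 were the highest among the cation channels. The day 2 call was lost with a pseudocount of 5. Os01g0696000 showed 9.99, 11.5, 6.91 and 2.18 FPKM along the total RNA series and 8.93, 7.17, 4.43 and 1.62 FPKM along the mRNA series and was lower on day 3. Its span takes in the whole of Os01g0696100 (1655 bases), and 81.5% to 100% of its FPKM came from a transcript described only as a conserved hypothetical protein, so its value as a channel gene is uncertain.

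Among the proteins that go with channels, Os02g0817500, a potassium channel beta subunit, showed 24.5, 50.1, 73.2 and 29.5 FPKM along the total RNA series and 24.0, 51.7, 66.6 and 28.7 FPKM along the mRNA series. It was higher on days 1 and 2 and highest on day 2, but its day 1 ratios were 1.002 and 1.08 and the call was lost under both other scalings and with a pseudocount of 5, and both calls were lost when only the most abundant transcript was counted. Os10g0438000, with a channel tetramerisation domain, showed 8.76, 7.46, 5.31 and 1.85 FPKM along the total RNA series and 10.2, 9.46, 5.42 and 2.45 FPKM along the mRNA series. It was lower at each step and called on day 3.

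Cyclic nucleotide-gated channels, which let calcium and other cations into plant cells, were called on no day in 5 of 7 genes. The first drought day had 2 higher genes of 7, the second 1, and the third 1 higher and 1 lower. That is 28.6%, 14.3% and 14.3% higher, against 6.93%, 14.5% and 18.2% of all genes, and 14.3% lower on day 3, against 25.9%. Os03g0758300 (chromosome 3, 31344785 to 31350801), similar to Arabidopsis CNGC2, which is known for its part in defence, showed 13.5, 47.5, 93.2 and 36.97 FPKM along the total RNA series and 21.5, 83.7, 145 and 47.3 FPKM along the mRNA series. It was higher on all 3 days and highest on day 2, and the day 3 call was lost under the deposited quantile-normalized values and with a pseudocount of 5. Os05g0502000, similar to CNGC4, showed 9.78, 21.4, 15.4 and 3.71 FPKM along the total RNA series and 9.99, 23.8, 15.4 and 3.83 FPKM along the mRNA series. This was the single member called in both directions, higher on day 1 and lower on day 3, and both calls were lost under each other scaling and with a pseudocount of 5.

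Os09g0558300, similar to CNGC14 and the most abundant of the group when watered, showed 48.02, 64.6, 68.9 and 70.3 FPKM along the total RNA series and 50.4, 58.9, 63.9 and 68.8 FPKM along the mRNA series. The ratios of this gene and of Os02g0255000, Os04g0643600, Os06g0188000 and Os06g0527100 stayed between -0.96 and 0.62 on all days in both kinds. None of these 5 was called.

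Chloride channel genes, whose products carry chloride or nitrate across inner membranes, were split. The 8 genes gave no call at first, 2 higher ones on day 2, then 2 in each direction. On day 2 that is 25% higher, against 14.5% of all genes. The day 3 shares were 25% in each direction, against 18.2% higher and 25.9% lower over all genes. Under median-ratio scaling the day 3 counts were 3 higher and 1 lower, under the deposited quantile-normalized values 1 and 2, and with a pseudocount of 5 they were 0 and 1. In that order the shares of all genes were 24.3%, 19% and 13.9% higher and 19.3%, 20.7% and 13.5% lower. Os08g0300300 (chromosome 8, 12350726 to 12356984), similar to Osclc, showed 12.9, 26.03, 38.2 and 29.5 FPKM along the total RNA series and 18.6, 39.7, 50.5 and 47.9 FPKM along the mRNA series. It was higher on days 2 and 3 and highest on day 2, the day 3 call being lost under the deposited quantile-normalized values and with a pseudocount of 5. Os02g0558100, with a chloride channel description, showed 16.5, 28.2, 37.4 and 31.2 FPKM along the total RNA series and 20.8, 30.2, 48.8 and 28.9 FPKM along the mRNA series and was higher on day 2, a call lost with a pseudocount of 5.

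Os12g0438600 was low when watered, and showed 0.548, 0.667, 1.85 and 5.32 FPKM along the total RNA series and 0.543, 0.564, 2.003 and 5.23 FPKM along the mRNA series. Its day 3 call was lost with a pseudocount of 5. The lower genes on day 3 were Os01g0704700, similar to CLC-f, and Os04g0644800, similar to Osclc. The former showed 19.1, 14.3, 11.5 and 5.08 FPKM along the total RNA series and 21.7, 16.8, 13.9 and 5.66 FPKM along the mRNA series, lower at each step. The latter showed 22.9, 25.8, 27.4 and 10.4 FPKM along the total RNA series and 28.9, 24.6, 27.5 and 11.6 FPKM along the mRNA series, and its call was lost under median-ratio scaling and with a pseudocount of 5. Those called on no day were Os02g0720700 and Os08g0499200 (both CLC-f-like) and Os03g0695700 (CLC-d-like), with day 3 ratios between -0.48 and 0.28.

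The 2 porins differed from each other. Os01g0588200 (chromosome 1, 22908290 to 22910674) showed 3.55, 22.1, 30.1 and 37.8 FPKM along the total RNA series and 3.59, 22.7, 29.8 and 44.6 FPKM along the mRNA series. It was higher on all 3 days, with ratios of 2.35, 2.77 and 3.09 by total RNA and 2.37, 2.75 and 3.31 by mRNA, and kept its calls under each alternative tried. Os05g0536200, the more abundant one when watered, showed 48.4, 79.8, 86.4 and 65.9 FPKM along the total RNA series and 119, 175, 191 and 129 FPKM along the mRNA series and was called on no day.

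Sodium/sulphate symporter-family genes were among the highest members. In plants this family includes dicarboxylate transporters of organelle membranes, and sodium transport by these products is not shown by the description alone. Os08g0503700 (chromosome 8, 24883255 to 24886266) showed 131, 631, 1155 and 201 FPKM along the total RNA series and 122, 645, 1099 and 193 FPKM along the mRNA series. It was the most abundant member on days 1 and 2, holding 32.7% and 30.5% of the summed FPKM of the members on day 2 against 8.54% and 6.77% when watered, and it was not called on day 3 at 0.61 and 0.65. Os09g0484900 (chromosome 9, 18715940 to 18718840) showed 4.94, 23.1, 78.5 and 119 FPKM along the total RNA series and 7.47, 36.9, 104 and 127 FPKM along the mRNA series. In contrast to Os08g0503700 it was higher at each step, and its day 3 total RNA ratio of 4.34 was the highest of the members.

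Bile acid:sodium symporter genes, a family known in Arabidopsis for carrying organic acids into plastids, had 6 members. The first drought day gave no call, the second 2 lower and 1 higher genes, and the third 3 lower. Lower genes made up 33.3% and 50% on days 2 and 3, against 11.1% and 25.9% of all genes. The higher share on day 2 was 16.7%, against 14.5%. The deposited quantile-normalized values gave 2 lower on day 1 and 4 on day 3, and a pseudocount of 5 gave 2 on day 3. In that order the lower shares over all genes were 4.22%, 20.7% and 13.5%. Os02g0475400 showed 24.8, 15.3, 4.95 and 4.87 FPKM along the total RNA series and 84.6, 41.6, 13.3 and 6.42 FPKM along the mRNA series. Os12g0170300 showed 10.5, 5.82, 1.92 and 1.15 FPKM along the total RNA series and 28.8, 13.5, 3.48 and 1.67 FPKM along the mRNA series. Both were lower at each step, and were called on days 2 and 3. Os02g0531200 showed 6.88, 7.83, 4.29 and 2.06 FPKM along the total RNA series and 14.99, 14.4, 10.6 and 2.38 FPKM along the mRNA series and was called lower on day 3, a call lost with a pseudocount of 5.

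Os09g0520600 was the higher one on day 2, with 16.7, 32.5, 46.7 and 20.1 FPKM in total RNA and 17.2, 31.7, 50.1 and 23.2 FPKM in mRNA, and its day 3 ratios were 0.26 and 0.41. Os01g0645200, the most abundant of the family when watered, showed 158, 129, 125 and 91.1 FPKM along the total RNA series and 119, 91.8, 91.7 and 72.03 FPKM along the mRNA series and was called on no day. Os04g0381100 was not called either, with day 3 ratios of 0.05 and -1.29 that had opposite signs in the kinds.

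The courses over the days fell into a few shapes. Day 3 was the highest day in both kinds for 22 members, day 2 for 18, day 1 for 9 and the watered library for 17, which is 28.6%, 23.4%, 11.7% and 22.1% of the members. The same shares over all genes were 21.5%, 12.3%, 19.8% and 22.1%. The 18 members highest on day 2 included 6 KUP/HAK and 3 of the 4 HKT-type genes. The level was higher at every step, in both kinds, in 20 members (26.0%, against 13.9% of all genes) and lower at every step in 13 (16.9%, against 17.0%). Between days 2 and 3, 2-fold steps down in both kinds numbered 14 and steps up 6, against 15.1% and 7.38% of all genes (18.2% and 7.79% of the members). Between days 1 and 2 there were 5 steps up and 2 down (6.49% and 2.60% of the members, against 4.3% and 5.0% of all genes).

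Both library kinds gave like ratios for the members. The median absolute difference between the kinds was 0.13 on days 1 and 2 and 0.19 on day 3, against 0.15, 0.16 and 0.24 over all genes. The signs differed for 7, 5 and 1 members on these days. Both ratios were above 0 in 52, 48 and 44 of the 77 members and below 0 in 18, 24 and 32. Among all 18113 genes both were above 0 in 10739, 8941 and 6683 and below 0 in 4726, 7408 and 9973. The share of all genes with differing signs was not computed. None was 2-fold higher in 1 kind in all 4 treatments, a size reached by 0.315% of all genes in total RNA and 4.05% in mRNA. Under median-ratio scaling the porin Os05g0536200 was 2-fold higher in mRNA throughout.

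**Figure D4:**
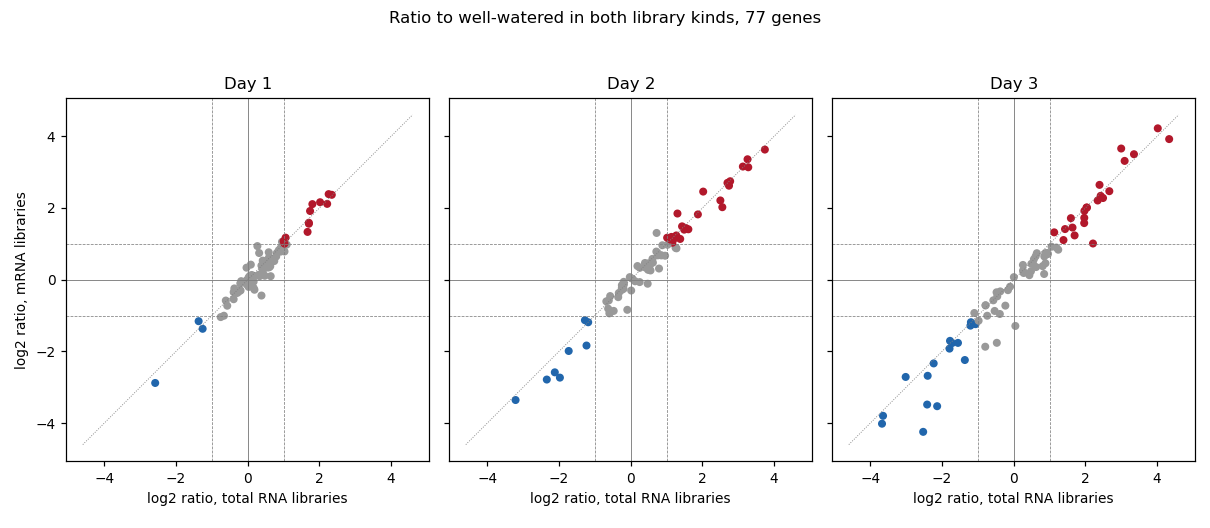
Ratio of each of the 77 genes in the total RNA libraries (horizontal axis) and the mRNA libraries (vertical axis) on days 1, 2 and 3, on a log2 scale, with higher genes in red, lower genes in blue and genes that were not called in grey. Dashed lines mark the ratios 1 and -1 and the dotted line marks equal ratios. The points lie along the dotted line, with Os07g0102100 the farthest from it on day 3 at -2.53 and -4.24.

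Genes that power or regulate ion transport were taken from lists by wording, outside the 77. Vacuolar proton pumps, which supply the proton gradient for the antiporters, were higher in 4, 10 and 14 of 23 genes along the days and lower in 0, 1 and 1, or 17.4%, 43.5% and 60.9% higher against 6.93%, 14.5% and 18.2% of all genes. The lower shares were 0%, 4.35% and 4.35%, against 2.46%, 11.1% and 25.9%. The lower gene on days 2 and 3 was Os02g0184200, a vacuolar proton pyrophosphatase. Of the B subunit gene Os06g0568200 the level was 84.0, 192, 265 and 424 FPKM in total RNA. The wording for plasma membrane proton pumps took 23 genes, of which 11 are vacuolar ones and 5 calcium pumps. On day 3 it had 13 higher and 2 lower genes (56.5% and 8.70%, against 18.2% and 25.9% of all genes). Of its 7 genes described as plasma membrane H+-ATPase, the pump that sets the membrane potential, 2 were called higher on each day and none was called lower. The higher ones were Os03g0689300, at 3.70, 36.2, 83.8 and 154 FPKM in total RNA, and Os07g0191200, at 56.3, 153, 208 and 591 FPKM. On day 3 Os01g0966000, Os02g0313900, Os11g0660400 and Os12g0638700 passed -1 in mRNA alone, so they were not called. Their day 3 ratios in total RNA were 0.82, -0.05, -0.54 and -0.63. The lowest mRNA ratio among them was -2.197, in Os11g0660400.

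Calcineurin B-like proteins and the kinases that bind them are known to switch potassium channels and sodium antiporters. Of 25 genes taken by the wording, 1 of them a cystathionine beta-lyase, the higher numbered 7, 8 and 7 along the days and the lower 1, 4 and 6. On day 1 that is 28% higher and 4% lower, against 6.93% and 2.46% of all genes. On day 2 it is 32% and 16%, against 14.5% and 11.1%. On day 3 it is 28.0% higher and 24.0% lower, against 18.2% and 25.9% of all genes. Os03g0126800, similar to CBL-interacting protein kinase 9, stood at 13.0, 44.0, 81.9 and 157 FPKM in total RNA. Os12g0603700, similar to kinase 4 of that family, stood at 7.26, 2.00, 1.03 and 0.173 FPKM and was lower on all 3 days.

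Calcium channels, glutamate receptors and calcium pumps were lower in 10 of 21 genes on day 3 and higher in 4, or 47.6% and 19.0% against 25.9% and 18.2% of all genes. Of the 9 genes described as glutamate receptors, a family of cation channels opened by amino acids, 7 were lower on day 3 and 1 higher. The higher gene, Os09g0431200, is described as a metabotropic glutamate receptor-like protein (GPCR, family 3) and not as a channel. Os04g0585200, one of the lower genes, stood at 75.7, 44.1, 16.9 and 2.84 FPKM in total RNA. None of the 5 genes for 14-3-3 proteins was called, and of 2 genes under the wording for malate channels 1 was lower on day 2. The lower gene was Os01g0221600, while the other, Os12g0515400, is described as a plastidic 2-oxoglutarate/malate transporter. Over all genes 6.93% and 14.5% were higher on days 1 and 2, and 2.46% and 11.1% were lower. Of the 10 leaf markers that passed the filter, 9 were lower on day 3, while among 22 genes described with pollen or anther 4 were higher and 3 lower, and among 5 described with glutelin or prolamin 1 was higher. No gene was described with the Casparian strip of root endodermis.

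The 25 matching genes outside the 77 were low. Of these, 19 are in both tables, with a highest value of 13.0 FPKM, and 6 are in 1 table, with a highest value of 0.0530 FPKM. Os11g0148000, with a sodium/calcium exchanger domain, showed 0.197, 0.430, 0.640 and 1.78 FPKM along the total RNA series and 3.35, 5.37, 6.30 and 13.0 FPKM along the mRNA series. It was excluded by its total RNA level alone. Os01g0876200, similar to CLC-c, was at most 0.0151 FPKM until day 2 and stood at 3.46 FPKM in total RNA and 1.57 FPKM in mRNA on day 3. Os01g0782800, similar to CNGC4, is listed at 0 in both watered libraries and stood at 1.74 and 1.05 FPKM on day 2.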

How the data were processed

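Total RNA and mRNA libraries of rice leaves were analysed from the deposited tables, in which the authors give FPKM per transcript, per the file headers. The deposited log2 columns beside it behave as quantile-normalized FPKM + 1, since their sorted values were equal across libraries within 0.01 for 100% of ranks in total RNA and 98.9% in mRNA. The upstream tools include StringTie 1.3.3b, HISAT2 2.0.5 and Bowtie2 2.2.6, beside Trimmomatic 0.32 and FastQC 0.10.0, per the submitters' processing notes, which give no roles. The build is IRGSP-1.0. The tables hold no counts, so no count test was run. FPKM was summed over all transcripts of a gene, and genes averaging 1 FPKM or more in both tables were kept. The log2 ratio of FPKM + 1 was taken within a table, since the tables were scaled separately. With 1 library per group, no value has a replicate error. The pseudocount was 1 FPKM.

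Genes were placed in groups by wording, with 8 moved by hand after their descriptions were read. Members and lists were chosen with earlier results of these data known. In each group, values of all libraries are given for the most abundant gene when watered and for up to 4 called genes with the largest ratio that both kinds reached, and the rest by ranges. Os01g0648000, the neighbouring gene pairs, Os01g0532600, and the genes named outside the 77 were chosen after their values were seen. Alternatives were other pseudocounts (0.1 and 5), filters, scalings, single kinds, the most abundant transcript and a limma 3.58.1 fit with library kind as a replicate block, and 1 alternative chosen after seeing the data counted only transcripts that match the wording. The scripts ran in Python 3.11.15 with pandas 2.3.3 and were tested on simulated data.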

Additional observations from a re-analysis of the deposited data

How the results depend on the processing

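No gene's call changed direction under any alternative. A pseudocount of 5 ended 29 of the calls for a gene and day, the deposited quantile-normalized values ended 10, median-ratio scaling 7 and the most abundant transcript 4. Counting only transcripts that match the wording (chosen after seeing the data) ended 1 among the 76 members that still passed the filter. Os01g0696000 fell below the filter there, and 14 members were lower on day 3 in place of 16. Calls were also gained, 8 under the deposited quantile-normalized values and 8 under median-ratio scaling. A pseudocount of 0.1 added 9, each kind alone 9, and the most abundant transcript 1. The pseudocount of 5 left 7 higher members and 1 lower member for day 1, and 4 lower ones for day 2. Over all genes these shares were 3.58%, 1.32% and 6.55%. A mean of at least 5 FPKM left 59 members, 5 of them lower on day 2, against 11% of all genes. The lower count on day 1 was 5 under the deposited quantile-normalized values and 5 in mRNA alone, against 4.22% and 3.33% of all genes. The count of members higher in mRNA in all 4 treatments was 1 with no filter (Os11g0148000) and 1 under median-ratio scaling (Os05g0536200). The cause was not tested. The labels share no replicate number that ties libraries, so the paired fit took library kind as the replicate block, in limma with Benjamini-Hochberg adjustment. It has no fold limit and treats both kinds as replicates, which they are not, so its calls compare these libraries and not the conditions. It called 39, 45 and 42 members higher and 8, 16 and 29 lower on days 1, 2 and 3, against 34.4%, 36.9% and 32.3% higher and 13.1%, 28.4% and 49.6% lower over all genes. Leaving out a replicate was not possible with 1 library per group. Levels near 1 FPKM are limited by depth, and their calls rest on the pseudocount.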

Other observations

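Slow anion channels belong to a family described in these tables with C4-dicarboxylate transporter or malic acid transport protein wording, a list chosen after the descriptions were seen. Of 5 such genes that passed the filter, the first drought day called none, the second 2 higher, and the third 2 higher and 1 lower. On day 2 that is 40% higher, against 14.5% of all genes. On day 3 it is 40% higher and 20% lower, against 18.2% and 25.9%. Os01g0385400 stood at 0.343, 1.20, 6.17 and 40.4 FPKM in total RNA. Os04g0574700 stood at 25.5, 25.5, 21.2 and 5.28 FPKM in total RNA, lowest on day 3.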
